A study of Mus musculus with 18 samples.

Results

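Extracellular purine signalling was examined through 10 mouse genes: the surface enzymes Entpd1 and Nt5e, the adenosine receptors Adora2a, Adora2b and Adora3, the ATP-gated channels P2rx4 and P2rx7, and the nucleotide-binding G-protein-coupled receptors P2ry2, P2ry6 and P2ry12. They were taken by name, as the probes whose transcript identifier maps to these RefSeq symbols. All 10 were among the 20813 genes or unnamed transcripts tested on the arrays, through 13 probes (3 for P2rx7, 2 for Adora2b and 1 for each of the others). The cells were macrophages grown from femoral marrow of male C57BL/6J mice of 8 weeks in macrophage colony stimulating factor for 7 days. PHD3-/- cells lack the oxygen-sensing prolyl hydroxylase encoded by Egln3 and are called KO here, and WT cells carry the intact gene. The series lists 3 mice for each group. The 6 groups were KO and WT cells at low oxygen, KO and WT starved cells, and KO and WT control cells, with 3 samples each. Low-oxygen samples were labelled 1 for oxygen concentration with control feeding, starved samples 20 with starved feeding, and control samples 20 with control feeding. The labels give no unit for oxygen, no duration, and nothing on what was withheld, and they state that the animals were not treated. They do not give the extent of the deletion.

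ATP and UTP leave stressed or damaged cells and act on P2 receptors, of which P2X members are ion channels opened by ATP and P2Y members are G-protein-coupled. Entpd1 (CD39) cuts ATP and ADP to AMP, and Nt5e (CD73) cuts AMP to adenosine, which acts on the adenosine receptors and in macrophages is generally known to restrain inflammatory output. In many cell types Nt5e and Adora2b are textbook targets of hypoxia-inducible factor (HIF), and P2rx7 is best known in macrophages as the ATP sensor that leads to NLRP3 inflammasome activation.

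The data were 1-colour microarrays of total RNA, 20 arrays on 5 slides, with 43020 spots each; KO low oxygen replicate 1 and KO control replicate 1 had 2 arrays, which were averaged. Levels are log2 of the processed signal minus the 75th percentile of that array, so 0 is the signal below which 75% of an array's spots lay, and a level is compared between samples of 1 probe only. Between 56.1% and 65.4% of spots were well above background. KO and WT cells did not differ in Egln3 signal past the threshold: it averaged 2.85 ± 0.14 and 2.90 ± 0.09 at low oxygen, -2.41 ± 0.18 and -2.30 ± 0.09 when starved, and -3.95 ± 0.23 and -3.46 ± 0.34 in controls (KO and WT; SD, n = 3 each; limma adjusted p = 1 in each condition). The position of that probe relative to the deletion is not known here, and its signal therefore checks no genotype label. Slc2a1 and Bnip3, well-known low-oxygen genes, were 4.11 and 4.64 log2 units higher at low oxygen in KO cells and 3.99 and 4.48 higher in WT cells. Ddit3 and Asns, known from amino acid starvation, did not rise in starved cells. Ddit3 differed from control by -0.12 in KO and -0.22 in WT cells (limma adjusted p = 0.694 and 0.448). Asns differed by -0.54 and -0.66 (adjusted p = 0.101 and 0.0456). All 7 measured markers of a list of 8 macrophage genes were well above background in every sample. Their summed level, in multiples of the array's 75th percentile, was 332 to 371.2 in KO and 371.2 to 404 in WT cells at low oxygen, 278 to 313 in KO and 335 to 369 in WT starved cells, and 266 to 299.6 in KO and 316 to 361 in WT controls. The KO samples lay below the WT samples in each condition, in a sum where the brightest genes weigh most. Averaged over conditions, 1 of the 7 genes fell in KO cells and 6 did not pass the threshold. The median KO minus WT difference of the 7 was -0.04. Replicate 3 of the KO controls, replicate 3 of the starved WT cells and replicate 1 of the WT controls had stood apart from their groups in an earlier look at these data, and calls that end without them are named beside their values.

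Of the 10 genes, 7 were well above background in all 18 samples, Entpd1 in 16, P2ry12 in 14 and Nt5e in 5. A change is called where limma's two-sided test, fitted on all genes and 18 samples, gave a Benjamini-Hochberg adjusted p below 0.05 over the 20813 genes. The arrays measure RNA of a whole culture, where fewer cells of a type and less RNA per cell cannot be told apart.

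**Figure D1:**
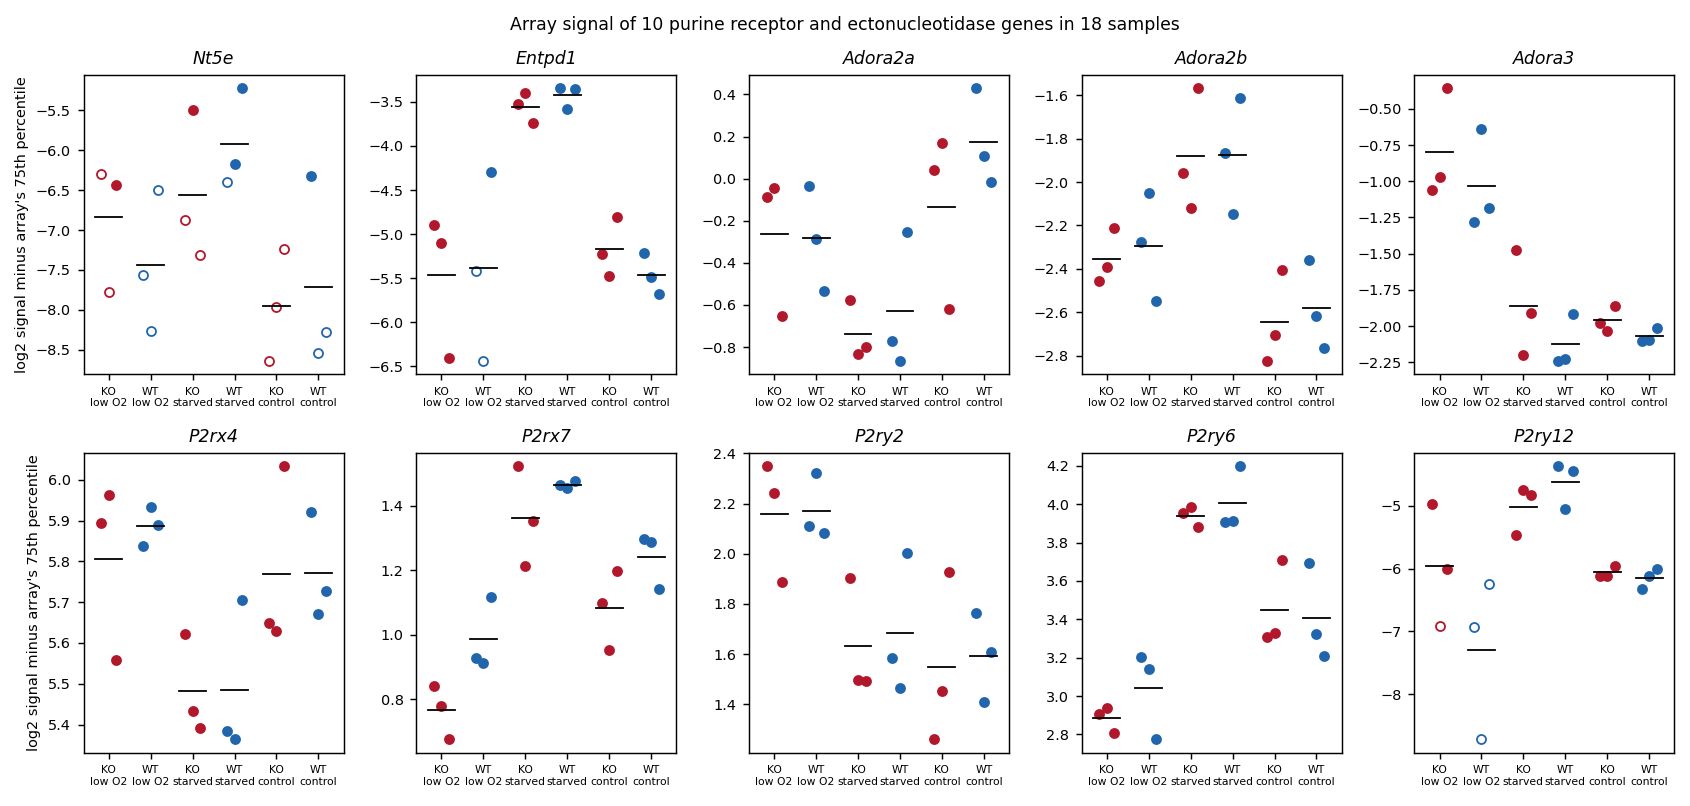
Level of each of the 10 genes in each of the 18 samples, as log2 signal minus the array's 75th percentile (vertical axis, separate scale for each gene), for KO (red) and WT (blue) cells at low oxygen, starved and as controls; bars are means of 3 samples and open points are not well above background. Adora3 and P2ry2 sit highest at low oxygen, Entpd1, Adora2b and P2ry6 when starved, and most Nt5e points are open.

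At low oxygen Adora3 and P2ry2 were higher than in controls in both genotypes, and P2ry6 and P2rx7 were lower in KO cells. In KO cells 2 of the 10 genes rose and 2 fell, where 21.4% of all genes tested rose and 18.3% fell. In WT cells 2 rose and none fell, against 20.5% and 18.1% of all genes. An unadjusted p under 0.05 was had by 4 of the 10 in KO cells and 5 in WT cells, against 47.2% and 46.6% of all genes. The KO shares are near those of the whole array, and in WT cells the share of rises is. The median log2 difference of the 10 was 0.07 in KO cells and 0.10 in WT cells, where that of all genes was 0.03 in both. Scaling each array to its median instead of its 75th percentile shifted the median of all genes by -0.11 in KO cells and -0.15 in WT cells, and rises then made up 40.9% and 34.7% of all calls, against 53.9% and 53.2% with the 75th percentile. The KO count of 4 became 2 without KO control replicate 1, and the WT count of 2 became 1 without WT low-oxygen replicate 2 or WT control replicate 2 and 4 without WT low-oxygen replicate 3.

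Adora3, the adenosine A3 receptor, couples to Gi proteins and is well known from mouse mast cells. At low oxygen its level was -1.06, -0.97 and -0.36 in KO cells and -1.28, -0.64 and -1.18 in WT cells. Control levels were -1.98, -2.03 and -1.86 in KO cells and -2.11, -2.09 and -2.01 in WT cells. Every low-oxygen sample was above every control sample. The difference was 1.16 ± 0.21 in KO cells (log2, SE; 2.24-fold, limma adjusted p = 0.000474) and 1.04 ± 0.21 in WT cells (2.05-fold, adjusted p = 0.00127). It stayed past the threshold under all 20 alternatives in both genotypes, with values of 0.94 to 1.29 in KO cells and 0.84 to 1.16 in WT cells. Within slides it was 0.96 to 1.58 on the 3 slides that held both KO groups and 1.47 on the single slide that held both WT groups. In starved cells its levels were -1.48, -2.20 and -1.91 in KO cells and -2.24, -2.22 and -1.92 in WT cells, at differences from control of 0.10 (adjusted p = 0.842) and -0.06 (adjusted p = 0.922).

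A list of 10 mast cell, basophil and eosinophil genes moved in the same direction as Adora3. Its summed level, in multiples of the array's 75th percentile, was 2.83 to 4.06 in KO and 2.58 to 4.40 in WT cells at low oxygen, against 0.697 to 0.799 in KO and 0.744 to 0.766 in WT controls. Of the list, 3 genes could be tested: 2 rose in each genotype, and the other fell in WT cells. The Fc receptor chains Fcer1a and Ms4a2, the basophil protease Mcpt8 and the eosinophil peroxidase Epx were not well above background in any of the 18 samples, and Cpa3 was in 1. Ccr3 and Siglecf were well above background in all 18 and Kit in 14. The part of these genes in the Adora3 result was not tested.

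P2ry2 binds ATP and UTP and is known for guiding phagocytes towards nucleotides released by dying cells. Its level at low oxygen was 2.35, 2.24 and 1.89 in KO cells and 2.11, 2.32 and 2.08 in WT cells, and in controls 1.26, 1.45 and 1.93 in KO cells and 1.76, 1.41 and 1.61 in WT cells. The WT groups were separate, whereas KO control replicate 3 lay just above the lowest KO low-oxygen sample. The difference was 0.61 ± 0.19 in KO cells (1.53-fold, limma adjusted p = 0.02) and 0.58 ± 0.19 in WT cells (1.49-fold, adjusted p = 0.0273). Inside single slides the KO value was 0.63 to 1.33 and the WT value 0.56. The call was lost in KO cells without low-oxygen replicate 1 or 2 or control replicate 1 or 2 (adjusted p = 0.0773, 0.0647, 0.0981 and 0.0665), and in WT cells without low-oxygen replicate 2 or control replicate 2 or 3 (adjusted p = 0.0914, 0.105 and 0.0613). In WT cells it was also lost with slide as a fixed block (0.62, adjusted p = 0.0581). Scaling each array to its median also ended it, at 0.50 in KO cells (adjusted p = 0.0683) and 0.43 in WT cells (adjusted p = 0.119).

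The promoters of these 2 receptors are shown because both genes rose at low oxygen in each genotype. RefSeq windows of 250 bases upstream of the annotated start were available for 8 of the 10 genes, with 11 starts, on build GRCm38.p6. Capitals mark the HIF core, searched as ACGTG and GCGTG on both strands, and the binding motif of the macrophage factor PU.1, searched as GAGGAAGT on both strands. The HIF core occurred in 38.6% of 32851 such mouse windows and the PU.1 motif in 2.44%.
Adora3, chr3:105904171-105904420, plus strand: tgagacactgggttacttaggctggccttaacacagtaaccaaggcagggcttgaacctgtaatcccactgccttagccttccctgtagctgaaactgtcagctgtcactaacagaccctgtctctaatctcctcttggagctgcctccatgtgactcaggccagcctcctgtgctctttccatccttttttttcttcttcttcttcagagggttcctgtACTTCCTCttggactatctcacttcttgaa
P2ry2, chr7:101011999-101012248, minus strand: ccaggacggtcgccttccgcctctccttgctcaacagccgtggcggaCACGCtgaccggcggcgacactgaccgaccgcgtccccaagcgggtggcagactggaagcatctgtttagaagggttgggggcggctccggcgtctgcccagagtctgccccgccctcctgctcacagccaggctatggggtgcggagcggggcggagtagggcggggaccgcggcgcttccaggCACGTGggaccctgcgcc
The Adora3 window holds 1 PU.1 match on the reverse strand, starting at position -30 from the start, and no HIF core. The P2ry2 window, which belongs to the second of 2 annotated starts, holds HIF cores at -203, -18 and -17; the last pair overlap on opposite strands in a palindrome, which is also an E-box. The window of the first start overlaps it and holds the same distal core, at -148 from that start. Of the 8 genes with a window, 5 had a HIF core in at least 1 window: Nt5e, Entpd1, Adora2b, P2ry2 and P2ry12. Counted by window, as the 38.6% of all mouse windows is, it was 6 of 11. A match describes letters only, and binding was not measured.

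P2ry6, the UDP receptor, is known for promoting phagocytosis in microglia. It lies next to P2ry2 on chromosome 7, with 0 protein-coding genes between them in the RefSeq annotation, and at low oxygen the neighbours had opposite signs. P2ry6 was at 2.91, 2.94 and 2.81 in KO low-oxygen cells, against 3.31, 3.33 and 3.71 in KO controls. WT cells had 3.20, 3.14 and 2.78 at low oxygen, against 3.70, 3.32 and 3.21 in controls. Neither genotype's groups overlapped. It fell by 0.56 on the log2 scale in KO cells (SE 0.15, limma adjusted p = 0.00755), and the difference in WT cells was -0.37 ± 0.15 (adjusted p = 0.0657). The KO call held under all 20 alternatives, and 5 of 20 brought the WT difference past the threshold. Within slides it was -0.52 to -0.30 in KO cells and -0.55 in WT cells.

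P2rx7 was at 0.84, 0.78 and 0.68 in KO low-oxygen cells, against 1.10, 0.95 and 1.20 in KO controls. WT cells had 0.93, 0.91 and 1.12 at low oxygen, against 1.30, 1.29 and 1.14 in controls. The groups did not overlap in either genotype. It fell by 0.32 on the log2 scale in KO cells (SE 0.10, limma adjusted p = 0.0194), and the difference in WT cells was -0.26 ± 0.10 (adjusted p = 0.0556). The KO call was lost without low-oxygen replicate 3, control replicate 1 or control replicate 3 (adjusted p = 0.0726, 0.0539 and 0.0731), and at -0.26 without the 3 samples that stood apart (adjusted p = 0.0863). It was also lost with normexp background correction and quantile normalization (-0.27, adjusted p = 0.109), and with only the compared groups fitted (adjusted p = 0.0849). On single slides it was -0.47 to -0.14 in KO cells and -0.38 in WT cells.

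The gene was measured by 3 probes designed on different RefSeq transcripts, which gave the same sign in every comparison of conditions with control. The probe for NM_001038887 gave -0.45 ± 0.14 in KO cells (adjusted p = 0.0178) and -0.33 ± 0.14 in WT cells (adjusted p = 0.0703) at low oxygen. The probe for NM_001038845 gave -0.51 ± 0.16 in KO cells (adjusted p = 0.0218) and -0.47 ± 0.16 in WT cells (adjusted p = 0.0327), so that the WT fall was called there and not by the brightest probe, which matches NM_011027. P2rx4, the neighbouring channel gene on chromosome 5, differed by 0.04 in KO cells (adjusted p = 0.866) and 0.11 in WT cells (adjusted p = 0.555).

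**Figure D2:**
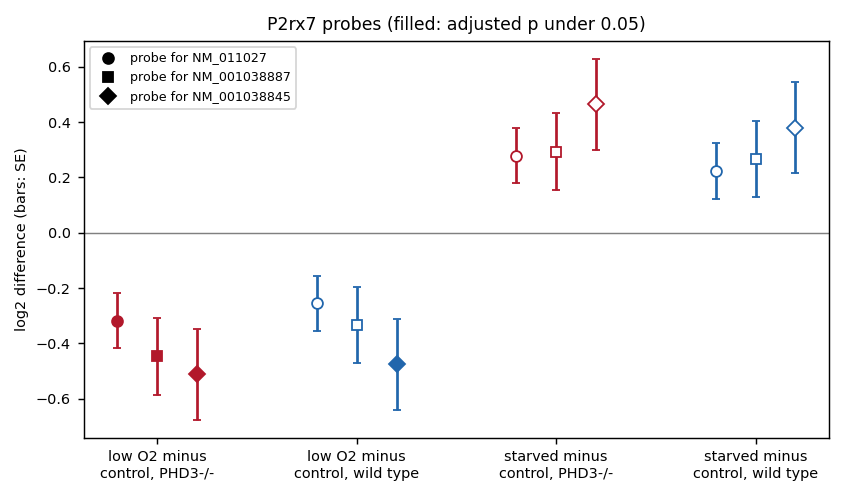
Differences in log2 signal of the 3 P2rx7 probes (marker shapes) between low oxygen or starvation and control, in KO (red) and WT (blue) cells; bars are SE and filled markers have a limma adjusted p below 0.05. The 3 probes are negative at low oxygen (-0.26 to -0.51) and positive when starved (0.22 to 0.46).

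The genes best known as hypoxia targets did not pass the threshold. Adora2b, which couples to Gs and Gq proteins, was at -2.46, -2.39 and -2.21 in KO low-oxygen cells, against -2.82, -2.70 and -2.40 in KO controls. WT cells had -2.28, -2.05 and -2.55 at low oxygen, against -2.36, -2.62 and -2.76 in controls. The groups overlapped in both genotypes, and the difference was 0.29 in each (95% interval -0.10 to 0.68 in KO cells and in WT cells; limma adjusted p = 0.228 and 0.233). Its dimmer probe gave -0.10 in KO cells (adjusted p = 0.724) and 0.28 in WT cells (adjusted p = 0.283), so the probes disagreed in sign in KO cells. Nt5e was too dim to follow: it was well above background in 1 of 3 KO and 0 of 3 WT low-oxygen samples, against 0 of 3 KO and 1 of 3 WT controls, and its intervals reached from -0.30 to 2.53 in KO cells and from -1.14 to 1.69 in WT cells. Entpd1 and Adora2a did not pass either, at -0.30 (adjusted p = 0.624) and -0.12 (adjusted p = 0.709) in KO cells and 0.08 (adjusted p = 0.909) and -0.46 (adjusted p = 0.133) in WT cells.

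In starved cells Entpd1, Adora2b and P2ry6 rose in both genotypes, and Adora2a fell in WT cells. In KO cells 3 of the 10 genes rose and 0 fell, where 7.13% of all genes rose and 6.38% fell. In WT cells 3 rose and 1 fell, against 6.49% and 6.02% of all genes. The median of the 10 was 0.39 in KO cells and 0.41 in WT cells, where that of all genes was 0.01 and 0.02. The KO count rests on single samples: it was 0 without KO control replicate 1 and 1 without KO control replicate 2 or without any 1 of the 3 KO starved samples. The WT count was 1 without WT control replicate 2 and 2 without WT control replicate 3, WT starved replicate 1 or WT starved replicate 3.

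Entpd1 showed the widest separation. Its level was -3.53, -3.40 and -3.73 in KO starved cells, against -5.22, -5.47 and -4.81 in KO controls. WT cells had -3.34, -3.58 and -3.36 when starved, against -5.22, -5.48 and -5.67 in controls. The starved and control samples did not overlap in either genotype, and all 12 were well above background. The difference was 1.61 ± 0.44 in KO cells (3.06-fold, limma adjusted p = 0.0228) and 2.03 ± 0.44 in WT cells (4.09-fold, adjusted p = 0.00578). Within slides it was 1.08 to 2.09 in KO cells and 1.87 to 2.32 in WT cells. The 6 groups share 1 estimate of spread, and the low-oxygen samples of this gene scattered most (SD 0.82 in KO and 1.07 in WT cells, against 0.17 and 0.13 in starved cells). The WT call held under all 19 alternatives. The KO call was lost without KO control replicate 1 or 2 or KO starved replicate 1 or 2 (adjusted p = 0.0626, 0.0874, 0.0629 and 0.0723), with slide as a fixed block (adjusted p = 0.074), and without the 3 samples that stood apart (1.79, adjusted p = 0.0513). The size depends on the background correction: with normexp and quantile normalization it was 0.63 in KO cells (adjusted p = 0.00857) and 0.81 in WT cells (adjusted p = 0.00142). CD39 is also known from regulatory T cells, B cells and endothelium. The summed level of 8 lymphocyte genes was 1.91 to 2.02 in KO starved and 1.66 to 2.36 in WT starved cells, against 1.5 to 1.90 in KO and 1.52 to 1.82 in WT controls; of the 4 tested, 0 rose and 2 fell in each genotype. Cd3g, Cd79a, Cd8a and Ncr1 were well above background in 0 of 18 samples. The sum of 7 stromal and endothelial genes was 2.54 to 3.60 in KO starved and 2.04 to 3.28 in WT starved cells, against 3.81 to 4.82 in KO and 3.93 to 4.56 in WT controls, and 0 of 7 rose. The part of these genes in the Entpd1 result was not tested.

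Adora2b was at -1.96, -2.12 and -1.57 in KO starved cells and at -1.86, -2.15 and -1.61 in WT starved cells. All starved samples were above all control samples, given above. The difference was 0.76 ± 0.18 in KO cells (1.70-fold, limma adjusted p = 0.0111) and 0.71 ± 0.18 in WT cells (1.63-fold, adjusted p = 0.0183). Within slides it was 0.59 to 0.84 in KO cells and 0.47 to 1.15 in WT cells. The dimmer probe gave 0.47 (adjusted p = 0.152) and 0.51 (adjusted p = 0.122). The call was lost without KO control replicate 1 (adjusted p = 0.0514) or KO starved replicate 3 (adjusted p = 0.0586) in KO cells, and in WT cells without WT starved replicate 1 or 3 or WT control replicate 2 or 3 (adjusted p = 0.0594, 0.0726, 0.0613 and 0.0867). Scaling each array to its median also ended the WT call (0.63, adjusted p = 0.0603).

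The promoters of these 2 genes are shown because both rose when starved in each genotype, with capitals marking the same motifs.
Entpd1, chr19:40612116-40612365, plus strand: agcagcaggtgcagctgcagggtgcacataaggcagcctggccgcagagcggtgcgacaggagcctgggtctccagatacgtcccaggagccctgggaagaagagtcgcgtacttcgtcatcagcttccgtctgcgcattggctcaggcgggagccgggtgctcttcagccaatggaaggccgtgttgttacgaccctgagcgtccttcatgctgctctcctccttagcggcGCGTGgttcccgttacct
Adora2b, chr11:62248734-62248983, plus strand: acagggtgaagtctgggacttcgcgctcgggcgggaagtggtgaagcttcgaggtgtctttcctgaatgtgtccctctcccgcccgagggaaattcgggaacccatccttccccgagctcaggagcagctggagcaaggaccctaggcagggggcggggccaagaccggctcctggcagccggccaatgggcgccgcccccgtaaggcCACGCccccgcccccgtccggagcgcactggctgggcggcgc
Each holds a single HIF core, at -18 in the first of 2 Entpd1 starts and, on the reverse strand, at -42 in Adora2b. GC content of the windows shown was 62.4% for Entpd1 and 69.6% for Adora2b, where the median of all windows was 52.4%. The window of the second Entpd1 start, not shown, had 47.2% GC and 0 HIF cores. The FOXO motif GTAAACA and the ATF4-CEBP motif TGATGNAA, searched on both strands because both factors are known from nutrient stress, were found in 0 of the 11 windows of the 8 genes and in 3.17% and 3.45% of all windows.

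P2ry6 was at 3.95, 3.99 and 3.88 in KO starved cells and at 3.91, 3.91 and 4.20 in WT starved cells, above every control sample. The difference was 0.49 ± 0.15 in KO cells (1.41-fold, limma adjusted p = 0.0407) and 0.60 ± 0.15 in WT cells (1.51-fold, adjusted p = 0.0157). On single slides it was 0.18 to 0.66 in KO cells and 0.21 to 0.99 in WT cells. The KO call was among the least stable: it was lost under 10 of 20 alternatives, including leaving out any 1 starved sample (adjusted p = 0.1, 0.111 and 0.0756) and KO control replicate 1 or 2 (adjusted p = 0.138 and 0.143), and slide as a fixed block (0.50, adjusted p = 0.0621). In WT cells it was lost without WT control replicate 2 or 3 or WT starved replicate 3 (adjusted p = 0.0644, 0.0831 and 0.0617). Scaling each array to its median ended it in both genotypes, at 0.44 in KO cells (adjusted p = 0.105) and 0.52 in WT cells (adjusted p = 0.0558).

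Adora2a, the Gs-coupled receptor through which adenosine damps macrophage and neutrophil activation, went the other way. It was at -0.58, -0.83 and -0.80 in KO starved cells, against 0.04, 0.17 and -0.62 in KO controls, where control replicate 3 lay among the starved samples. WT cells had -0.77, -0.86 and -0.25 when starved, against 0.43, 0.11 and -0.01 in controls, with no overlap. It fell by 0.80 on the log2 scale in WT cells (SE 0.23, limma adjusted p = 0.0324), and the KO difference was -0.60 ± 0.23 (adjusted p = 0.109). The WT call was lost without WT control replicate 1 or 2 or WT starved replicate 1 or 2 (adjusted p = 0.124, 0.0714, 0.122 and 0.13), and with slide as a fixed block (-0.80, adjusted p = 0.0565). It was below 0 on each of the 3 slides that held starved and control samples of a genotype.

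Neutrophil genes were also lower in starved cells. The summed level of 8 measured genes of a list of 9 was 5.65 to 9.06 in KO starved and 7.17 to 9.30 in WT starved cells, against 9.68 to 15.8 in KO and 11.99 to 18.7 in WT controls; 4 of 7 tested genes fell in KO cells and 5 of 7 in WT cells. At low oxygen the sum was as low, at 5.16 to 9.59 in KO and 6.11 to 9.67 in WT cells, where Adora2a did not pass the threshold. S100a9, 1 of the listed neutrophil genes, was also the gene whose 18 values were most like those of Adora2a (Pearson r = 0.82). The part of these genes in the Adora2a result was not tested.

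P2ry12, the ADP receptor of platelets and microglia, was at -5.47, -4.75 and -4.83 in KO starved cells, against -6.11, -6.12 and -5.96 in KO controls. WT cells had -4.37, -5.05 and -4.45 when starved, against -6.33, -6.11 and -6.01 in controls. The groups did not overlap, but the difference of 1.05 ± 0.52 in KO cells (limma adjusted p = 0.23) and 1.53 ± 0.52 in WT cells (adjusted p = 0.0735) missed the threshold, with the low-oxygen groups again scattered most (SD 0.97 in KO and 1.27 in WT cells). With normexp and quantile normalization it was 0.28 in KO cells (adjusted p = 0.204) and 0.47 in WT cells (adjusted p = 0.0254). A list of 5 platelet genes had a summed level of 10.4 to 13.3 in KO starved and 12.3 to 15.4 in WT starved cells, against 6.51 to 7.31 in KO and 5.86 to 6.51 in WT controls. The sum was higher still at low oxygen, at 15.6 to 32.8 in KO and 16.0 to 33.4 in WT cells, where P2ry12 was not called against controls in either genotype. Itga2b and Gp1ba of that list were not well above background in any sample, and the microglial gene Sall1 was not either. Of 3 tested platelet genes 0 rose and 1 fell in KO starved cells, and 1 rose and 1 fell in WT starved cells. The part of these genes in the P2ry12 values was not tested. Nt5e was well above background in 1 of 3 KO and 2 of 3 WT starved samples, and its differences of 1.39 (adjusted p = 0.207) and 1.79 (adjusted p = 0.101) carried intervals of -0.02 to 2.80 and 0.37 to 3.20.

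The 2 channel genes had opposite signs when starved, and neither passed the threshold within a genotype. P2rx7 was at 1.52, 1.21 and 1.35 in KO starved cells and at 1.46, 1.45 and 1.48 in WT starved cells, above every control sample of its genotype, at differences of 0.28 ± 0.10 (limma adjusted p = 0.0842) and 0.22 ± 0.10 (adjusted p = 0.185). P2rx4, an ATP-gated channel found largely on lysosomes, was at 5.62, 5.43 and 5.39 in KO starved cells, against 5.65, 5.63 and 6.03 in KO controls. WT cells had 5.38, 5.36 and 5.71 when starved, against 5.92, 5.67 and 5.73 in controls. The difference was -0.29 ± 0.14 in both genotypes (adjusted p = 0.218 in KO and 0.231 in WT cells), with overlap in WT cells. P2ry2 differed by 0.08 in KO cells (adjusted p = 0.851) and 0.09 in WT cells (adjusted p = 0.85).

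**Figure D3:**
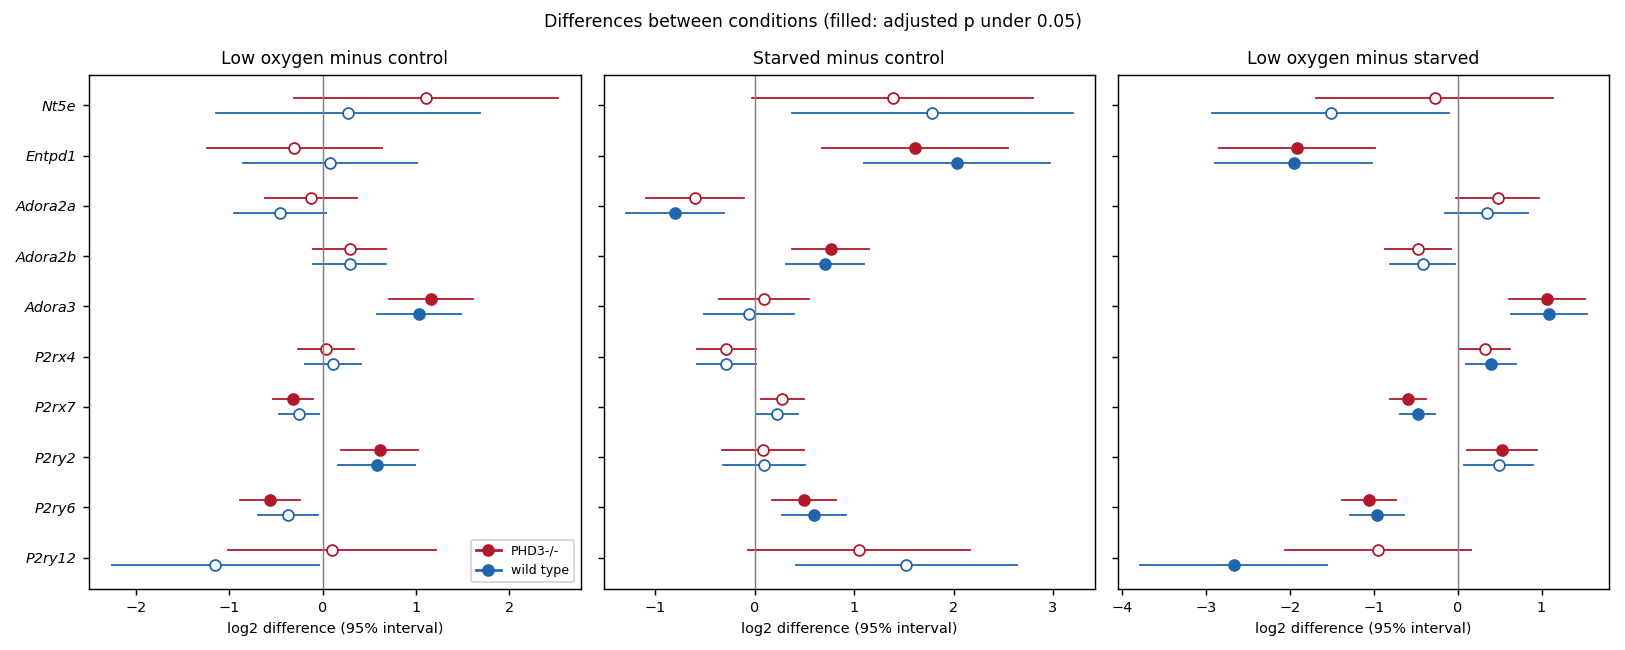
Log2 differences with 95% intervals for low oxygen minus control, starved minus control and low oxygen minus starved, in KO (red) and WT (blue) cells; filled points have a limma adjusted p below 0.05 over 20813 genes. Adora3 stands at 1.16 and 1.04 at low oxygen and Entpd1 at 1.61 and 2.03 when starved, and P2ry6 changes sign between the first 2 panels.

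Low oxygen and starvation were also set against each other directly. In KO cells 2 genes were higher at low oxygen (Adora3 and P2ry2) and 3 lower (Entpd1, P2rx7 and P2ry6), where 19.2% of all genes were higher and 17.9% lower. In WT cells 2 were higher (Adora3 and P2rx4) and 4 lower (Entpd1, P2rx7, P2ry6 and P2ry12), against 19.8% and 18.3%. P2ry6 was -1.06 ± 0.15 in KO cells (limma adjusted p = 6.36e-05) and -0.97 ± 0.15 in WT cells (adjusted p = 0.000142), with every low-oxygen sample below every starved sample. Entpd1 was 3.77-fold lower at low oxygen in KO cells (adjusted p = 0.00302) and 3.88-fold lower in WT cells (adjusted p = 0.00259), although 2 of the 3 WT low-oxygen samples were not well above background. P2rx7 was -0.60 ± 0.10 in KO cells (adjusted p = 0.000271) and -0.48 ± 0.10 in WT cells (adjusted p = 0.00157), and both other probes passed in both genotypes. Those calls (Entpd1 at -0.81 and -0.77 with normexp), and Adora3 at 1.06 (adjusted p = 0.0011) and 1.09 (adjusted p = 0.000912), held under every alternative tried.

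P2ry12 was not well above background in any WT low-oxygen sample, so its level there is only a bound: it was at least 2.94-fold lower at low oxygen than in starved WT cells (means -7.30 and -4.62, limma adjusted p = 0.00095; -0.65 with normexp). In KO cells, where 2 of 3 low-oxygen samples measured it, the difference was -0.95 ± 0.52 (adjusted p = 0.172). The remaining calls were weaker. P2ry2 was 0.53 ± 0.19 in KO cells (adjusted p = 0.0436) and was lost under 11 of 20 alternatives, including leaving out low-oxygen replicate 1 or 2 (adjusted p = 0.142 and 0.122) or starved replicate 2 or 3 (adjusted p = 0.134 and 0.129), slide as a fixed block (0.57, adjusted p = 0.052) and the replicate block (adjusted p = 0.056). P2rx4 was 0.40 ± 0.14 in WT cells (adjusted p = 0.0342) and was lost under 12 of 20, including leaving out any 1 low-oxygen sample (adjusted p = 0.059, 0.0842 and 0.0696) or starved replicate 1 or 2 (adjusted p = 0.115 and 0.122), slide as a fixed block (0.46, adjusted p = 0.0585), and quantile normalization, at 0.21 (adjusted p = 0.204).

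Loss of PHD3 changed none of the 10 genes past the threshold. KO against WT was tested at low oxygen, when starved and in controls, where 0% of all genes passed, and averaged over the 3 conditions, where 5 genes (0.024%) passed, none of them among the 10. The difference between the genotypes' responses was 0% called for low oxygen and 0% for starvation. In limma's test 2 of the 10 had an unadjusted p under 0.05 at low oxygen (353 genes, 1.7%, did over the whole array), and 1 did in the average (508 genes, 2.44%). None of the 10 had one when starved (394 genes, 1.89%), in controls (290 genes, 1.39%), or for the difference in response to low oxygen (230 genes, 1.11%) or starvation (216 genes, 1.04%). P2rx7 had such a p at low oxygen and in the average: at low oxygen the KO samples were all below the WT samples, at -0.22 ± 0.10 (limma adjusted p = 1), and averaged over conditions KO minus WT was -0.16 ± 0.06 (adjusted p = 1). These are values of the brightest probe. The P2rx7 probe for NM_001038887 gave -0.20 ± 0.14 at low oxygen and -0.12 ± 0.08 in the average (SE, adjusted p = 1). The P2rx7 probe for NM_001038845 gave -0.03 ± 0.16 and 0.02 ± 0.09 (adjusted p = 1). The summed macrophage genes were also lower in KO cells in each condition, as given above. Averaged over conditions, however, only 1 of the 7 genes fell, and their median difference was -0.04. The part of these genes in the P2rx7 values was not tested. P2ry12 had the other at low oxygen, where 2 of 3 KO and 0 of 3 WT samples were well above background. It was not called (limma adjusted p = 1) and the groups overlapped, so no fold is given.

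The intervals show what size of genotype effect the 18 samples leave possible. Averaged over conditions, the 95% interval of KO minus WT was -0.20 to 0.14 for P2rx4, -0.25 to 0.12 for P2ry6, -0.27 to 0.18 for Adora2b and -0.28 to 0.20 for P2ry2. For Adora3 it was -0.06 to 0.47. It was far wider for the dim genes, at -0.51 to 0.56 for Entpd1 and -0.90 to 0.73 for Nt5e. For the response to low oxygen the KO minus WT difference of Adora3 was 0.12 (interval -0.51 to 0.76), and for starvation that of Entpd1 was -0.42 (interval -1.74 to 0.90).

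Because no response differed between the genotypes past the threshold, responses were also averaged over KO and WT, an analysis added after the values were seen. At low oxygen 2 genes rose and 2 fell: Adora3 and P2ry2 were higher, and P2ry6 and P2rx7 lower, at -0.47 ± 0.11 (limma adjusted p = 0.00175) and -0.29 ± 0.07 (adjusted p = 0.00308), against 28.6% and 24.7% of all genes. When starved, 6 rose and 2 fell, against 12.4% and 11.9% of all genes. Beside Entpd1, Adora2b and P2ry6, the risers were Nt5e at 1.59 ± 0.47 (limma adjusted p = 0.0218), P2ry12 at 1.29 ± 0.37 (adjusted p = 0.0186) and P2rx7 at 0.25 ± 0.07 (adjusted p = 0.0168). Nt5e was well above background in 1 of 3 KO and 2 of 3 WT starved samples, and in 0 of 3 KO and 1 of 3 WT controls, so that its size rests on signals near background. Adora2a fell by 0.70 on the log2 scale (adjusted p = 0.0051) and P2rx4 fell by 0.29 (adjusted p = 0.0463). Between low oxygen and starvation 4 were higher and 5 lower, against 27.5% and 26% of all genes. P2ry6 and P2rx7 thus had opposite calls under the 2 stresses, down at low oxygen and up when starved.

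The order of the group means followed condition more than genotype. For Entpd1 and P2ry6 the 2 starved groups stood at the top and the next group did not overlap them. For Adora3 both low-oxygen groups stood at the top, and the 4 others followed with overlapping neighbours. For P2rx7 the order ran from starved through control to low oxygen, WT above KO within each condition by the brightest probe (the NM_001038845 probe had KO above WT when starved and in controls), and only the lowest 2 groups, KO and WT at low oxygen, were separate neighbours. For P2ry6 the controls were separate from the low-oxygen groups below them as well. For Nt5e, Adora2a, Adora2b, P2rx4, P2ry2 and P2ry12 every pair of neighbours in the order overlapped.

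A wider set of 48 purinergic genes, listed by role, placed these changes in their pathway; 37 could be tested. At low oxygen 8 rose and 17 fell in KO cells, and 7 rose and 15 fell in WT cells, against 21.4% up and 18.3% down over all genes in KO cells and 20.5% and 18.1% in WT cells. The medians were -0.37 and -0.21, where that of all genes was 0.03. Falls outnumbered rises in both genotypes under each of 4 other scalings, with 5 to 8 rises and 15 to 19 falls. When starved, 1 rose and 2 fell in each genotype, beside the shares of all genes (7.13% up and 6.38% down in KO cells, 6.49% and 6.02% in WT cells). The counts by role that follow are read against the same shares.

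Among 8 other receptors tested, 2 rose and 3 fell at low oxygen in each genotype, where all genes rose in 21.4% (KO) and 20.5% (WT) and fell in 18.3% and 18.1%. P2ry14, a receptor for UDP-glucose, averaged -0.49 ± 0.35 in KO and -0.35 ± 0.11 in WT low-oxygen cells, against -2.41 ± 0.20 in KO and -2.39 ± 0.28 in WT controls (SD, n = 3 each). It rose by 1.92 and 2.03 on the log2 scale (limma adjusted p = 3.15e-06 and 1.92e-06). It lies on chromosome 3 with 2 protein-coding genes between it and P2ry12, which was not called at low oxygen. The ATP-gated channel gene P2rx3 rose by 0.60 and 1.04 (adjusted p = 0.0427 and 0.00168). The ADP receptor P2ry1 fell by 0.68 and 1.01 (adjusted p = 0.00251 and 0.000115) and the channel gene P2rx1 fell by 0.76 and 0.78 (adjusted p = 0.0199 and 0.0173). P2rx6 was called lower at levels where no low-oxygen sample was well above background.

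Among 11 other ectonucleotidases and related enzymes tested, 3 rose and 4 fell at low oxygen in each genotype. Over all genes 21.4% rose and 18.3% fell in KO cells, and 20.5% and 18.1% in WT cells. The third riser was Entpd3 in KO cells and Entpd7 in WT cells. Entpd3 lay near background, at 1.13 (limma adjusted p = 0.0479). It was well above background in 2 of 3 KO low-oxygen samples and 1 of 3 KO controls. The intracellular nucleotidases Entpd5 and Entpd4, of the endoplasmic reticulum and Golgi, rose by 1.32 and 0.72 in KO cells (limma adjusted p = 3.54e-06 and 0.000407) and by 1.14 and 0.74 in WT cells (adjusted p = 1.75e-05 and 0.000322). Another Entpd gene, Entpd6, went the other way, at -1.12 in KO cells (limma adjusted p = 0.000154) and -0.73 in WT cells (adjusted p = 0.00457). Enpp2, the secreted enzyme autotaxin, averaged 0.34 ± 0.54 in KO and 0.36 ± 0.57 in WT low-oxygen cells, against 2.30 ± 0.22 in KO and 2.07 ± 0.19 in WT controls, and fell by 1.96 and 1.72 (adjusted p = 0.000164 and 0.000546). Alpl, a phosphatase that can release adenosine from AMP, was well above background only in controls, in 2 of 3 KO and 2 of 3 WT samples. It was at least 1.03-fold lower at low oxygen in KO cells and at least 1.02-fold lower in WT cells. When starved it was at least 1.13-fold and 1.23-fold lower. Alpl passed the filter for testing only through those controls, so no p-value is given for it. Its place among the 4 falls at low oxygen, and among the falls when starved, rests on those controls alone.

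Of 8 tested genes of adenosine uptake, removal and related metabolism, 5 fell and 1 rose at low oxygen in each genotype. Over all genes 18.3% (KO) and 18.1% (WT) fell. The falls include Ahcy in each genotype, whose reaction forms adenosine. The 5 were not all the same: Slc29a3 passed in KO cells (-0.37, limma adjusted p = 0.0402, against 0.08 and adjusted p = 0.695 in WT cells), and Pnp in WT cells (adjusted p = 0.0916 in KO cells, at -0.25, and 0.0478 in WT cells, at -0.30). The low-oxygen response of neither gene differed between the genotypes past the threshold. The adenosine kinase Adk averaged 3.01 ± 0.09 in KO and 2.86 ± 0.23 in WT low-oxygen cells, against 4.28 ± 0.12 in KO and 4.18 ± 0.25 in WT controls, and fell by 1.28 and 1.32 (limma adjusted p = 1.81e-05 and 1.43e-05). Adenosine deaminase, Ada, fell by 1.23 and 1.13 (adjusted p = 0.000545 and 0.00115), and Ahcy, which hydrolyses S-adenosylhomocysteine to adenosine and homocysteine, fell by 1.34 and 1.30 (adjusted p = 0.000133 and 0.000193). The equilibrative transporter Slc29a1 fell by 0.96 and 0.89 at low oxygen (adjusted p = 8.14e-06 and 1.79e-05). It was also lower when starved, by 0.75 and 0.79, which makes it 1 of the 2 genes that fell in starved cells of each genotype. The other was Alpl, which passed the filter only through its control samples. The concentrative purine nucleoside transporter Slc28a2 rose by 1.41 and 1.10 (adjusted p = 2.58e-06 and 8.07e-05), with 2 of 3 WT low-oxygen values in the fit after outlier flags.

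Of 4 ATP release genes tested, 1 rose and 2 fell at low oxygen in each genotype, against 21.4% up and 18.3% down over all genes in KO cells and 20.5% and 18.1% in WT cells. Gja1, a connexin of gap junctions and hemichannels, averaged 0.94 ± 0.10 in KO and 0.69 ± 0.36 in WT low-oxygen cells, against -1.17 ± 0.29 in KO and -0.99 ± 0.28 in WT controls, and rose by 2.12 and 1.69 (limma adjusted p = 4.91e-07 and 5.04e-06). The vesicular nucleotide transporter Slc17a9 fell by 0.82 and 0.76 (adjusted p = 0.000363 and 0.000771), and the scramblase Ano6 fell by 0.99 and 0.69 (adjusted p = 1.7e-05 and 0.000474). Intracellular nucleotidases of the NT5 family were less uniform, with 1 rise and 3 falls among 6 tested in KO cells and 1 fall in WT cells.

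**Figure D4:**
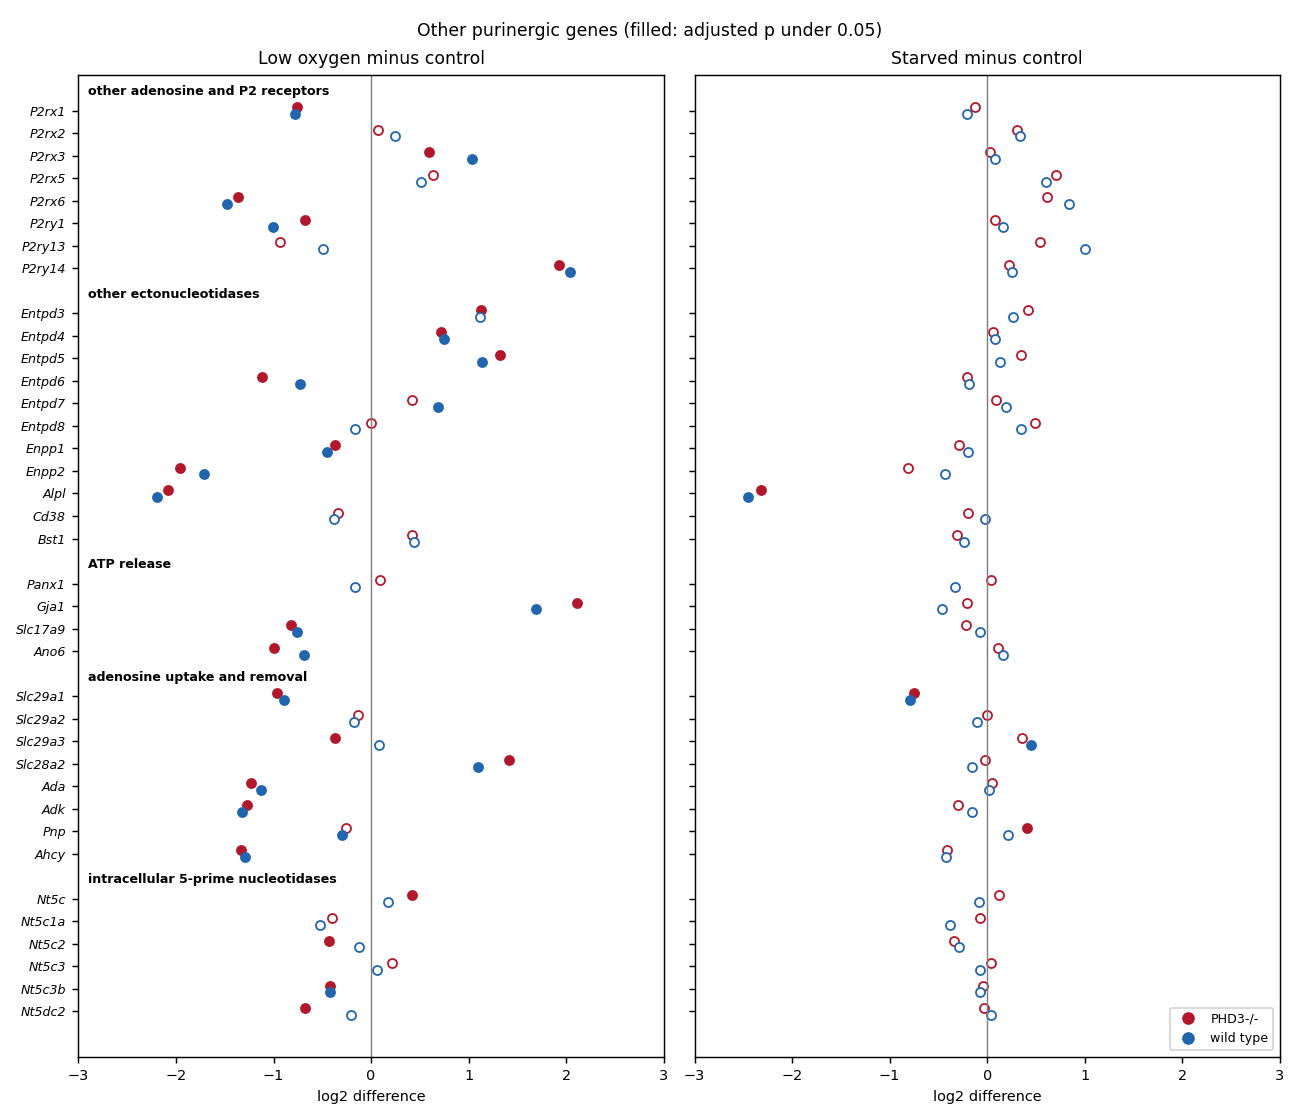
Log2 differences from control at low oxygen (left) and when starved (right) of the 37 tested genes of the wider purinergic list, grouped by role, in KO (red) and WT (blue) cells; filled points have a limma adjusted p below 0.05. P2ry14, Gja1 and Slc28a2 stand to the right at low oxygen and Enpp2, Alpl, Adk and Ahcy to the left. In starved cells Alpl and Slc29a1 are the genes called in both genotypes, and Alpl was well above background only in controls.

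As a description over the 18 samples, which share their conditions, the symbol-named genes with values most like each of the 7 well-measured genes were taken from 11750 candidates. They were Icam2 and Smc1b for Adora3 (Pearson r = 0.96 for both), Mad2l1bp and Zscan12 for P2ry2 (0.96 for both), and Steap3 and Vcpkmt for P2ry6 (0.96 for both). They were Abhd14a and Iftap for Adora2b (0.95 and 0.94), Arid1b and Bbc3 for P2rx7 (0.94 and 0.93), and Abraxas1 and Ifi208 for P2rx4 (0.97 and 0.94). Adora2a had the lowest values, with S100a9 at 0.82 and Sdc2 at 0.81.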

How the data were processed

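RNA of 18 cultures was measured on 1-colour Agilent arrays, with 200 ng per array and Cy3 label per the labels' protocols. Intensities are the processed signals as deposited by the authors, made with Feature Extraction 10.7.3.1 per the file headers, on a design annotated to mm9. The authors' deposited series table holds log2 values whose columns have near identical distributions, so it was quantile normalized, tested on the values; it served as an alternative. The submitters' processing notes name limma.

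Processed intensities were set relative to each array's 75th percentile as log2 values, after control spots and outlier flags were left out. The brightest probe stood for a gene. A probe was tested if well above background in at least 3 samples with at least 2 values in every group. Group means were fitted over 18 samples with limma 3.58.1 in R 4.3.3 (prior degrees of freedom 2.48, residual 12), with 12 comparisons and Benjamini-Hochberg adjustment over all genes at 0.05; intervals are 95%. In data simulated with independent noise, without slide or replicate structure, the fit recovered large changes placed in a small share of genes. That does not show recovery of the smaller differences called here. The "at least" folds set the bright group's mean against, per array, the higher of the lowest signal well above background and the dim probe's own. Arrays give no read depth; their number limits the precision.

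Transcript identifiers matched RefSeq symbols for 26055 of 39429 probes. Promoter windows are RefSeq's, on GRCm38.p6. All 10 genes are named with their values; genes of the wider list and markers are named where past the threshold or as defining markers. The genes, lists and tests were chosen with earlier results of these data known.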

Additional observations from a re-analysis of the deposited data

How the results depend on the processing

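Counts of the 10 genes called moved by over 1.5 times as follows. At low oxygen in KO cells the count of 4 became 2 when only the compared groups were fitted. In WT cells the count of 2 became 4 with quantile normalization, with the authors' table and with responses averaged over genotypes, and 1 with no filter on dim probes or with slide as a fixed block. When starved, the KO count of 3 became 1 with slide as a fixed block, and the WT count of 4 became 2 with median scaling or with only the compared groups; both became 8 in the average over genotypes. For low oxygen against starvation the KO count of 5 became 8 without the 3 samples that stood apart and 9 in the average. Leaving out 1 sample gave 2 to 3 (low oxygen) and 0 to 4 (starvation) genes in KO cells, 1 to 4 and 1 to 4 in WT cells, and 4 to 7 and 5 to 7 for low oxygen against starvation in KO and WT cells. Over 120 gene results, 24 were called, 13 of these kept their call under all alternatives, and 0 reversed.

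The labels do not say that replicate numbers pair the samples. Over 45 same-numbered pairs the correlation of deviations from group means ran from -0.33 to 0.48, with 15 above 0.1, and 12 of 18 samples were most like their own number. All 3 pairs of KO low-oxygen and KO starved samples were above 0.1 (0.153, 0.177 and 0.160), which was seen only after looking at all pairs. Whether the numbers pair those groups is not settled by this. With the replicate block the KO counts were 4 (low oxygen), 2 (starvation) and 4 (low oxygen against starvation), and the WT counts 2, 4 and 6. The calls it ended were P2ry6 when starved (0.49, adjusted p = 0.0564) and P2ry2 for low oxygen against starvation (0.53, adjusted p = 0.056), both in KO cells. Signal over background limits Nt5e most, since a filter on all 18 samples keeps 7 of the 10 genes.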
